A study of Arabidopsis thaliana with 4 samples.

Results

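BBX14 (AT1G68520), BBX15 (AT1G25440), BBX16 (AT1G73870) and BBX17 (AT1G49130) are the 4 genes of Arabidopsis thaliana for proteins with a single B-box and a CCT domain. They were selected on their identifiers and family membership, as 4 of the 33602 genes in the FPKM table, and all 4 were found and passed the filter on low values. The choice was made with earlier results of the jmj28-3 against WT comparison in view, so the differences between genotypes in these 4 genes are given as a description with no test. The series holds 4 libraries of polyadenylated RNA from whole seedlings, 2 of the jmj28-3 line and 2 of the wild type (WT, accession Col-0). All seedlings were 12 days old and grew on half-strength MS medium with 1% sucrose under 16 h of light and 8 h of dark at 23 °C. JMJ28 is a jumonji protein, of a family that includes histone demethylases. The labels name the jmj28-3 allele without its lesion, and JMJ28 (AT4G21430) itself had 3.65 and 3.33 FPKM in jmj28-3, against 3.80 and 5.54 FPKM in WT (limma adjusted p = 0.327), so its transcript does not check the genotype. Whether the 2 libraries of a genotype came from separately grown plants is not stated, so the p-values below rest on a spread that may be technical. The time of day of collection is not stated either.

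B-box proteins are plant transcription regulators whose B-box folds around zinc and binds other proteins. The CCT domain, named after CONSTANS, CONSTANS-like and TOC1, carries nuclear localisation and contacts to DNA and to NF-Y subunits. CONSTANS (CO, BBX1) is the family member that activates the flowering signal gene FT in long days. BBX14, BBX15 and BBX16 have been described in Arabidopsis as direct targets of the chloroplast regulators GLK1 and GLK2 that bind CO and hold back FT. BBX16, also named COL7, acts in shoot branching and in the greening response of seedlings, and BBX17, also named COL8, binds CO and delays flowering.

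All 4 genes lie on chromosome 1 of the TAIR10.1 assembly. BBX14 spans 25708175 to 25710989 on the minus strand, with 2 exons and a protein of 406 residues. BBX15 spans 8933716 to 8935544 on the minus strand, with 2 exons and 417 residues. BBX16 spans 27778984 to 27780809 on the plus strand, with 2 exons and 392 residues. BBX17 spans 18174373 to 18176389 on the minus strand, has 2 annotated mRNAs, and its longest coding sequence gives 326 residues. A search of the translated coding sequences for letter patterns found 1 B-box and 1 CCT match in each of the 4 proteins. The pattern also found only 1 B-box in some class I and class II proteins, so it does not check the class, which rests on the family's naming. The coding DNA of the B-box is shown because the class has 1 B-box together with a CCT domain. This DNA is read 5′ to 3′ on the gene strand from the RefSeq TAIR10.1 genome. Capitals mark all codons for cysteine and histidine. Which residues hold zinc was not tested.
BBX14: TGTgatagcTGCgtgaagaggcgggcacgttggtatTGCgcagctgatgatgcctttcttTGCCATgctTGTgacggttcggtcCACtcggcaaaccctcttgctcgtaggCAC
BBX15: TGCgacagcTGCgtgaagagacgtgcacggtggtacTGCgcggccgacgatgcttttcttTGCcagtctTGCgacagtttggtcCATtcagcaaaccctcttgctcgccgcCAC
BBX16: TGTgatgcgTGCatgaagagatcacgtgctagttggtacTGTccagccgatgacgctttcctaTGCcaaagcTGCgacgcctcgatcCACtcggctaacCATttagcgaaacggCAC
BBX17: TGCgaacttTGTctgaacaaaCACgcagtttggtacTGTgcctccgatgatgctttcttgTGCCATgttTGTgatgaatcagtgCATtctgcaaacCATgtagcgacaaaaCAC

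The B-box of BBX14 and BBX15 was the same in 34 of 38 residues, and the CCT stretches compared were the same in 43 of 43. Over the whole aligned protein BBX14 and BBX15 shared 65.7% of residues, and each was the closest of the 31 other BBX proteins to the other. BBX16 was closest to BBX15, with 45.9% identity, and BBX17 was closest to BBX16, with 44.1%. BBX17 was the most distant member in the B-box, at 57.9% identity to BBX15 and to BBX16 and 63.2% to BBX14. None of the 50-base windows in the mRNAs of the 4 genes occurred elsewhere in the genome. Reads of at least that length inside an exon and without mismatches would thus match no other stretch of the genome. Windows across exon junctions were not compared with the spliced mRNAs of other genes.

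BBX14 was the member with the highest level in jmj28-3 seedlings. It had 251.56 and 260.48 FPKM in jmj28-3, against 105.95 and 124.11 FPKM in WT. FPKM scales fragments by transcript length and library size, so levels can be set side by side between genes. Both jmj28-3 libraries lay more than 2-fold above both WT libraries, and the genotypes did not overlap. The means were 256 ± 6.31 FPKM in jmj28-3 and 115 ± 12.8 FPKM in WT (SD, n = 2 each), 2.23-fold higher in jmj28-3. Any jmj28-3 library over any WT library gave a ratio between 2.03 and 2.46. In bulk seedlings, a change in the number of cells that hold a transcript and a change in RNA per cell cannot be told apart.

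BBX15, the closest relative of BBX14, showed a small difference the other way. It had 117.94 and 108.07 FPKM in jmj28-3, against 122.16 and 131.25 FPKM in WT. The jmj28-3 values lay just below the WT values, with a gap between the genotypes smaller than the gap between the jmj28-3 libraries. The means were 113 ± 6.98 FPKM in jmj28-3 and 127 ± 6.43 FPKM in WT (SD, n = 2 each), a ratio of 0.892.

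BBX16 had 60.24 and 52.61 FPKM in jmj28-3, against 69.38 and 70.06 FPKM in WT. The WT libraries were almost equal and both stood above the jmj28-3 libraries. The means were 56.4 ± 5.40 FPKM in jmj28-3 and 69.7 ± 0.481 FPKM in WT (SD, n = 2 each), a ratio of 0.809.

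BBX17, the member with the lowest level, showed the largest ratio. It had 11.61 and 11.42 FPKM in jmj28-3, against 2.35 and 4.01 FPKM in WT. The jmj28-3 libraries were close to each other, while the WT libraries differed 1.71-fold. Genes within 2-fold of the mean of BBX17 over all 4 libraries differed 1.10-fold between WT libraries at the median. That mean lay above both WT values of BBX17, so the spread of genes at its WT level was not examined. The means were 11.5 ± 0.134 FPKM in jmj28-3 and 3.18 ± 1.17 FPKM in WT (SD, n = 2 each), 3.62-fold higher in jmj28-3. Depending on the libraries chosen, the ratio ran from 2.85 to 4.94, so its size rests on low and unequal WT values.

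**Figure D1:**
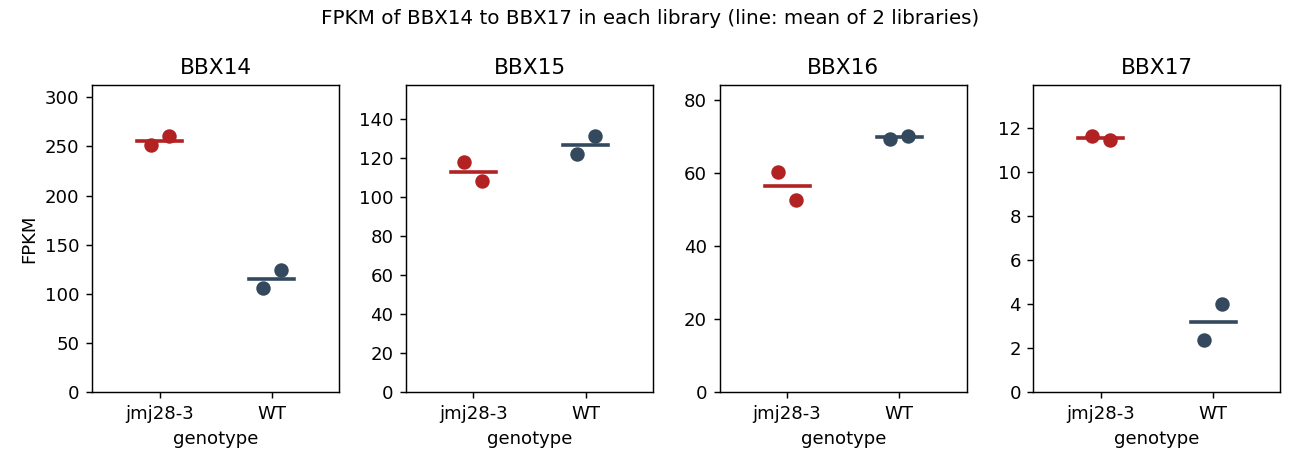
FPKM of each gene in the 2 jmj28-3 libraries (red, left) and the 2 WT libraries (dark, right), each panel on its own linear axis from 0. Points are libraries and lines are means; BBX14 and BBX17 stand higher in jmj28-3, with ratios of 2.23 and 3.62, and BBX15 and BBX16 stand slightly lower, with ratios of 0.892 and 0.809.

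On the log2(FPKM + 1) scale, the jmj28-3 mean minus the WT mean was 1.15 (SE 0.0826) for BBX14 and 1.61 (SE 0.197) for BBX17. The same difference was -0.16 (SE 0.0671) for BBX15 and -0.30 (SE 0.0770) for BBX16, with SEs from the limma fit over all genes. A larger absolute difference was found in 1.6% of the 20232 tested genes for BBX14, in 0.6% for BBX17, in 20.7% for BBX16 and in 42.5% for BBX15. Over all tested genes, limma with Benjamini-Hochberg adjustment called 4.18% higher and 3.79% lower in jmj28-3. Both jmj28-3 libraries lay above both WT libraries for 2 of the 4 genes and for 22.4% of tested genes, and below them for the other 2 and for 32.7% of tested genes. These counts come from the contrast known when the genes were chosen and are not evidence about the class. With 1 library left out in turn, the difference of BBX14 lay between 1.04 and 1.26 and that of BBX17 between 1.32 and 1.90.

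**Figure D2:**
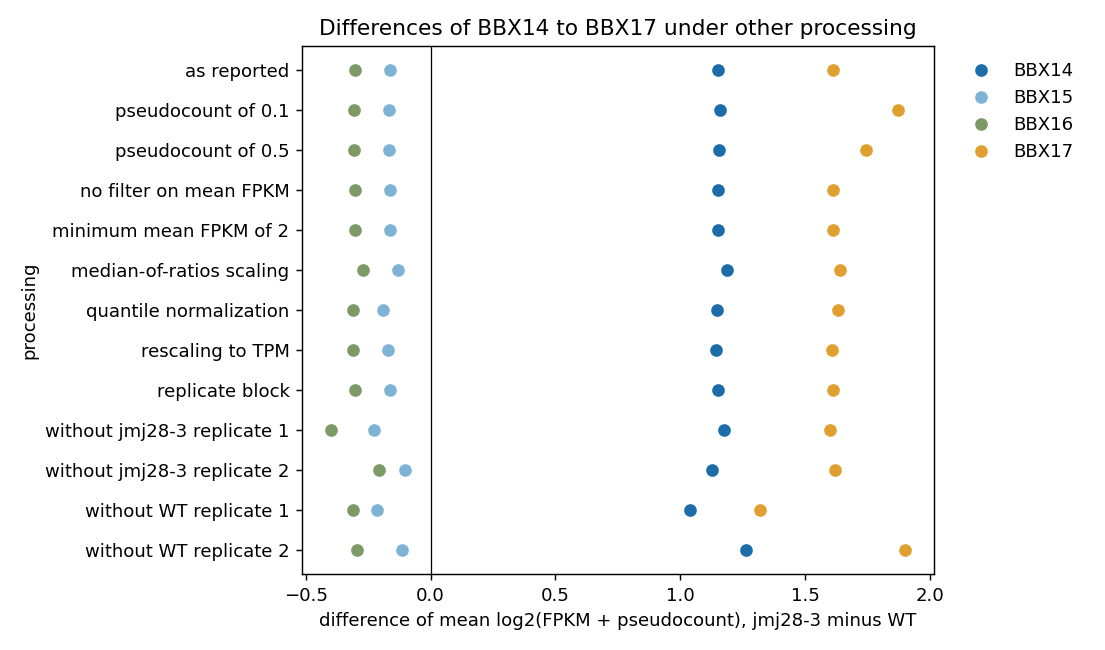
Difference of mean log2(FPKM + pseudocount), jmj28-3 minus WT, on the horizontal axis for each gene (colours) under each way of processing (rows). No point crosses 0; the widest range is that of BBX17, 1.32 to 1.90 with 1 library left out.

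The order of levels within the class differed between genotypes. In jmj28-3 it was BBX14, BBX15, BBX16 and BBX17 from high to low, with 2.27-fold, 2.00-fold and 4.90-fold steps between neighbours and no overlap of libraries at any step. In WT it was BBX15, BBX14, BBX16 and BBX17. The means of the first 2 differed only 1.10-fold and their values overlapped across libraries, though BBX15 stood above BBX14 within each WT library. The next WT steps were 1.65-fold and 21.9-fold, without overlap. Within a library, the ratio of BBX14 to BBX15 was 2.13 and 2.41 in jmj28-3, against 0.867 and 0.946 in WT. BBX16 over BBX17 was 5.19 and 4.61 in jmj28-3, against 29.5 and 17.5 in WT, while BBX15 over BBX16 kept to 1.96 and 2.05 in jmj28-3, against 1.76 and 1.87 in WT. Ratios within a library do not depend on how libraries were scaled to each other.

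The summed level of the 4 genes was 441 and 433 FPKM in jmj28-3, against 299.8 and 329 FPKM in WT. BBX14 made up 57.0% and 60.2% of that sum in jmj28-3, against 35.3% and 37.7% in WT. BBX15 made up 26.7% and 25.0% in jmj28-3, against 40.7% and 39.8% in WT. BBX16 held 13.7% and 12.2% in jmj28-3, against 23.1% and 21.3% in WT, and BBX17 held 2.63% and 2.64% in jmj28-3, against 0.784% and 1.22% in WT. BBX14 alone gave more than the other 3 genes together in both jmj28-3 libraries and in neither WT library. Over all 32 BBX genes the summed level was 1776 ± 29.0 FPKM in jmj28-3 and 1692 ± 77.1 FPKM in WT (SD, n = 2 each), of which these 4 genes gave 24.6% ± 0.0495 in jmj28-3 and 18.6% ± 0.396 in WT.

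**Figure D3:**
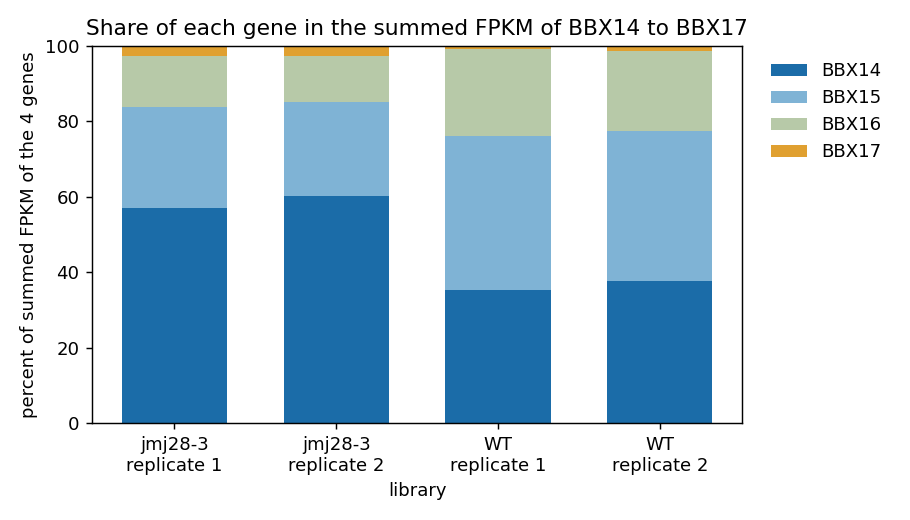
Share of each gene in the summed FPKM of BBX14 to BBX17, in percent, 1 bar per library with the jmj28-3 libraries on the left. BBX14 takes 57.0% and 60.2% in jmj28-3, against 35.3% and 37.7% in WT, and BBX17 stays the thinnest band.

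Among the 32 BBX genes, BBX14 ranked 3 and 2 in the jmj28-3 libraries, against 7 and 7 in the WT libraries. BBX17 ranked 17 and 18 in jmj28-3, against 24 and 24 in WT. Set against all genes with a value above 0, BBX17 was at or above 56.9% and 55.9% of them in jmj28-3, against 25.0% and 33.0% in WT. BBX15 kept its place near the top, at or above 94.7% and 94.0% of such genes in jmj28-3, against 94.9% and 95.2% in WT.

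The DNA just upstream of the annotated start was searched on both strands for 5 motifs, namely the G-box CACGTG, the evening element AAAATATCT, the CCA1-binding site AAAAATCT, the GLK-associated motif CCAATC and the I-box GATAAG. In the 250 bases before the start, BBX14 held 3 copies of CCAATC and 1 I-box, and BBX15 held 2 copies of CCAATC. The windows of BBX16 and BBX17 held none of the 5 motifs. CCAATC occurred in 10.2% of the 27443 protein-coding windows of the same length, the I-box in 12.3%, the G-box in 6.5%, the evening element in 2.4% and the CCA1-binding site in 6.7%. Counted back from the base before the start, the CCAATC matches began at -190, -130 and -88 in BBX14 and at -113 and -11 in BBX15, with those at -190 and -113 on the opposite strand. A match is a run of letters and was not tested as a binding site. Both windows are shown because BBX14 and BBX15 are closest relatives and both hold CCAATC. The part of the motif in their levels was not tested. The BBX14 window is chr1:25710990-25711239 and the BBX15 window chr1:8935545-8935794, both on the minus strand of TAIR10.1, written 5′ to 3′ toward the gene, with motif matches in capitals.
BBX14: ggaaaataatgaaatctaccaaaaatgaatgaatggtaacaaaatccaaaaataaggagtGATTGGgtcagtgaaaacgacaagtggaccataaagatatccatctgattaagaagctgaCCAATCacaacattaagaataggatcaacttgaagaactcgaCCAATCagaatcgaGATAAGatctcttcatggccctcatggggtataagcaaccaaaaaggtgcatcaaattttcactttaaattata
BBX15: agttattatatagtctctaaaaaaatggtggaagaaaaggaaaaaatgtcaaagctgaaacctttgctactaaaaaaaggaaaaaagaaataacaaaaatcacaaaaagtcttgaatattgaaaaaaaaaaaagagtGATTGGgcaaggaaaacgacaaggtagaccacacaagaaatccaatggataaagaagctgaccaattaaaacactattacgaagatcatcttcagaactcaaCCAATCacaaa

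The neighbours of the 4 genes were looked at because the counting is not stated to use strand. LBD42 (AT1G68510) overlaps the last exon of BBX14 by 329 bases on the opposite strand and had 0.05 and 0.06 FPKM in jmj28-3, against 0 and 0 FPKM in WT. CRF9 (AT1G49120) overlaps BBX17 by 44 bases on the opposite strand and had 0 and 0.06 FPKM in jmj28-3, against 0.25 and 0.06 FPKM in WT. Both overlapping genes were therefore close to 0 beside the values of BBX14 and BBX17. No annotated gene overlaps BBX15 or BBX16. AT1G49140, which lies 382 bases from BBX17 on the same strand, had 137.36 and 148.72 FPKM in jmj28-3, against 129.11 and 122.60 FPKM in WT, and was not called (log2 change 0.18, limma adjusted p = 0.146). AT1G73875, only 45 bases from BBX16, had 4.62 and 4.06 FPKM in jmj28-3, against 4.19 and 5.25 FPKM in WT (log2 change -0.09, limma adjusted p = 0.726). KCS5, a fatty acid elongation gene 2842 bases from BBX15, had 28.99 and 29.52 FPKM in jmj28-3, against 23.83 and 24.90 FPKM in WT (log2 change 0.25, limma adjusted p = 0.0755). The nearest genes on the remaining sides stood at 5 FPKM or less: AT1G68500 and AT1G68526 by BBX14, AT1G25430 by BBX15, AT1G73860 by BBX16 and AT1G49110 by BBX17.

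Genes with a like pattern were sought as those with the smallest distance between centred log2(FPKM + 1) values over the 4 libraries. As the pattern holds the genotype difference, this is a description. AT1G18020 (an FMN-linked oxidoreductase gene), the senescence-associated gene SAG20 and AT1G27290 were nearest to BBX14, at distances of 0.0602, 0.0618 and 0.0712. SAG20 had 91.84 and 100.32 FPKM in jmj28-3, against 38.37 and 46.13 FPKM in WT. Nearest to BBX17 were AT1G26800, a RING/U-box gene, AT5G49448 and bZIP1, a leucine-zipper transcription factor gene, at distances of 0.172, 0.190 and 0.190. bZIP1 had 15.90 and 17.14 FPKM in jmj28-3, against 4.02 and 5.37 FPKM in WT. AT5G49448, annotated as a conserved upstream reading frame, carried exactly the values of bZIP1 and is not a separate observation. Nearest to BBX15 were TBL2, AT1G75730 and IQD29, and nearest to BBX16 were ANNAT3, WNK6 and AT5G41050, at distances from 0.0112 to 0.0253. Among the members, BBX15 and BBX16 were 0.160 apart and BBX14 and BBX17 0.526 apart, and the other pairs were 1.32 to 1.96 apart.

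The remaining 28 BBX genes put these values in the context of the family. They were tested, though this list and those below were also chosen with earlier results of these data known. Of 24 tested, 3 were called higher and 10 lower in jmj28-3 by limma with Benjamini-Hochberg adjustment. Over all tested genes, 4.18% were called higher and 3.79% lower. The median log2 change of the 24 was -0.15, beside -0.03 over all tested genes. BBX9, BBX23 and BBX26 were listed at 0 in every library, and BBX10 was under the filter. In class I, which pairs 2 B-boxes with a CCT domain, BBX6 (COL5) and BBX4 (COL3) were higher and BBX3 (COL2) was lower among 6 tested. BBX6 had 200 ± 0.0141 FPKM in jmj28-3 and 130 ± 7.15 FPKM in WT (SD, n = 2 each; log2 change 0.61, limma adjusted p = 0.0053). BBX4, a promoter of photomorphogenesis, had a log2 change of 0.54 (limma adjusted p = 0.0259) and BBX3 one of -0.55 (limma adjusted p = 0.0368). CO, the founding member, had 0.99 and 0.50 FPKM in jmj28-3, against 0.53 and 0.50 FPKM in WT, and was not called. In class II, which has the same domains, 0 of 5 tested genes were called, with BBX11 at -0.24 (limma adjusted p = 0.124) and BBX13 at 0.24 (limma adjusted p = 0.262). Of these 5, limma gave an unadjusted p under 0.05 to 1.

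In class IV, with 2 B-boxes and no CCT domain, 4 of 7 tested genes were lower and none higher. Over all tested genes the shares were 3.79% lower and 4.18% higher. BBX18 and BBX19, which act as repressors of photomorphogenesis, had log2 changes of -1.03 and -0.71 (limma adjusted p = 0.00541 and 0.017), and BBX25 and BBX24 had -0.84 and -0.29 (limma adjusted p = 0.0196 and 0.0277). In class V, which has 1 B-box as BBX14 to BBX17 do but no CCT domain, 5 of 6 tested genes were lower and BBX27 was higher, with a median log2 change of -1.96. BBX32, BBX30, BBX31 and BBX29 had log2 changes of -2.79, -2.78, -1.97 and -1.95 (limma adjusted p = 0.0106, 0.00108, 0.00505 and 0.00152). The size for BBX32 rests on low and unequal jmj28-3 values, 0.30 and 1.61 FPKM, against 10.48 and 13.16 FPKM in WT. With a pseudocount of 0.1 it was -3.84. The difference between the classes was not tested. Of the genes named with a log2 change, the calls on BBX3, BBX4, BBX6, BBX18, BBX19, BBX24, BBX25 and BBX31 were lost without jmj28-3 replicate 2, with limma adjusted p from 0.0671 for BBX18 to 0.193 for BBX4 and BBX24. Without jmj28-3 replicate 1 those on BBX3, BBX4, BBX6, BBX19, BBX24 and BBX31 were lost, and without either WT library those on BBX3, BBX19, BBX24, BBX25 and BBX32, together with BBX4 without WT replicate 1.

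**Figure D4:**
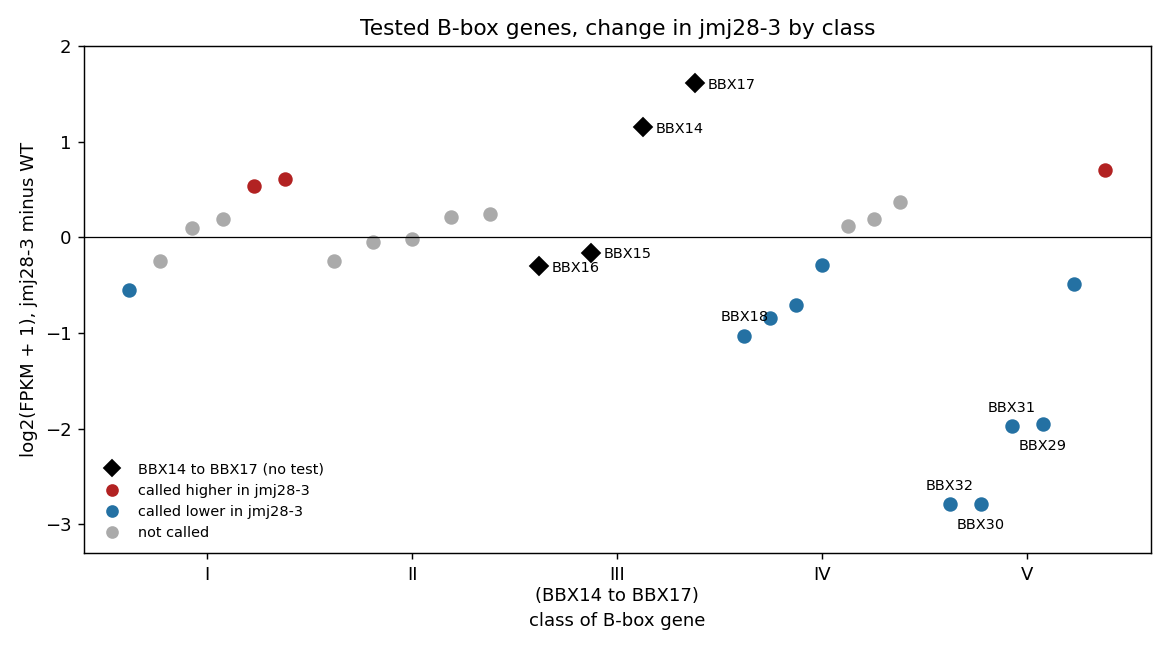
Log2 change (jmj28-3 minus WT, on the log2(FPKM + 1) scale) of the 28 B-box genes that passed the filter, by class, with BBX14 to BBX17 as black diamonds without a test. BBX17 and BBX14 lie at 1.61 and 1.15 and BBX15 and BBX16 at -0.16 and -0.30, while class V reaches down to -2.79.

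The GLK factors and the enzymes of chlorophyll synthesis were examined because GLK proteins are described as activators of BBX14 to BBX16. Of 15 tested genes 1 was called higher and 1 lower in jmj28-3, beside 4.18% and 3.79% of all tested genes. The median log2 change of the 15 was -0.06. GLK1 had 80.60 and 75.38 FPKM in jmj28-3, against 136.38 and 110.34 FPKM in WT (log2 change -0.65, limma adjusted p = 0.0264). GLK2 had 123.90 and 117.81 FPKM in jmj28-3, against 146.69 and 135.42 FPKM in WT, and was not called. Both jmj28-3 libraries lay below both WT libraries for GLK1 and for GLK2, as for 32.7% of tested genes, and the part of this in the values of BBX14 to BBX17 was not tested. PORB, a light-dependent protochlorophyllide reductase gene, had 194 ± 24.1 FPKM in jmj28-3 and 69.1 ± 2.88 FPKM in WT (SD, n = 2 each). Its log2 change was 1.47 (limma adjusted p = 0.00254). PORC, a gene for the same enzyme, had 222.72 and 207.82 FPKM in jmj28-3, against 208.35 and 229.06 FPKM in WT, and was not called (log2 change -0.022). PORA, also for this enzyme, was under the filter. The call on GLK1 was lost without jmj28-3 replicate 1, jmj28-3 replicate 2 or WT replicate 1, with adjusted p of 0.118, 0.203 and 0.0658.

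Among 12 light signalling regulators, 5 were called higher and 4 lower in jmj28-3, beside 4.18% and 3.79% of all tested genes. The median log2 change of the 12 was 0.30. PIF4 and PIF5, bHLH factors that promote elongation, had log2 changes of 0.72 and 0.57 (limma adjusted p = 0.00917 and 0.00454), and the far-red photoreceptor gene PHYA had 0.61 (limma adjusted p = 0.00841). HYH, a bZIP factor close to HY5, had a log2 change of -0.64 (limma adjusted p = 0.004). The other calls were PIF1 and the blue-light receptor gene CRY1, both higher, and HY5, COP1 and SPA1, all lower. Without jmj28-3 replicate 2 none of the 12 was called, with limma adjusted p of 0.0992 for PIF4, 0.0744 for PIF5, 0.101 for PHYA and 0.0681 for HYH. Without jmj28-3 replicate 1, PIF4 and PHYA stood at 0.0769 and 0.0562, and PHYA was also lost without WT replicate 1 or 2, at 0.0521 and 0.0567. Of the genes controlled by CO, TSF was listed at 0 in every library. FT had 0.40 and 0.63 FPKM in jmj28-3, against 1.24 and 1.08 FPKM in WT, and was not called, and SOC1 had 12.75 and 11.26 FPKM in jmj28-3, against 22.23 and 19.26 FPKM in WT (log2 change -0.74, limma adjusted p = 0.0166). SOC1 was called in none of the fits without 1 library, with adjusted p from 0.0518 to 0.149.

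The libraries showed the tissue of the label. The 3 leaf markers RBCS1A, CAB3 and RCA summed to between 40960 and 42470 FPKM in jmj28-3, against 40830 to 43010 FPKM in WT. The root markers PYK10, CASP1 and COBL9 summed to 1172 to 1229 FPKM in jmj28-3, against 1248 to 1282 FPKM in WT. All 3 root markers were lower in jmj28-3 without overlap, as were 32.7% of tested genes, and none was called. The part of this in the values of BBX14 to BBX17 was not tested. The flower markers AG, AP3 and PI did not exceed 0.52 FPKM and the seed markers CRU3, CRU1 and SESA3 did not exceed 0.46 FPKM, with CRU3 and SESA3 at 0 in every library. Pearson correlations of log2(FPKM + 1) were 0.989 within jmj28-3 and 0.989 within WT, and 0.977 to 0.980 between genotypes.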

How the data were processed

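The authors deposited one table of FPKM per gene, with 2 decimals and 1 column per library, for 2 jmj28-3 and 2 WT libraries. TopHat, RSEM, edgeR and the build TAIR10 are named in the submitters' processing notes, without versions, settings or order. FPKM hold no read counts and the depth per library is unknown, so no interval for counting error is given. Column names gave the library of each column.

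From these values, log2(FPKM + 1) was fitted with limma 3.58.1 in R 4.3.3 for genes with a mean FPKM of at least 0.5, with genotype as the only term, a variance trend, two-sided tests and Benjamini-Hochberg adjustment over all 20232 tested genes at a threshold of 0.05. The fit was first run on simulated data with independent noise between libraries, and the outcome is not used as backing for any call. Folds were taken between mean FPKM, and log2 changes with a pseudocount understate those of low genes. Gene models and DNA came from RefSeq TAIR10.1, matched by gene identifier, and proteins were translated from it and aligned with Biopython 1.88. Positions are those of TAIR10.1, since the table carries none. B-boxes and CCT domains were found by letter patterns, which found only 1 B-box in some of the proteins listed with 2.

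The 4 genes, the other lists and the motifs were chosen with earlier results of these data known. Named from each list are up to 4 called genes with the largest change, or, in a list with no call, the 2 genes of lowest p, along with the 3 nearest genes in pattern and the flanking genes of each member. CO, FT, GLK2, PORA, PORC, BBX27, LBD42 and CRF9 fall outside that rule and were added once their values were known. The same holds for PIF1, CRY1, HY5, COP1 and SPA1. Results were also computed without each library in turn, with the replicate number as a block, without the variance trend, with scaling by median of ratios, by quantiles or to TPM, with pseudocounts of 0.1 or 0.5, and with the filter dropped or set to 2 FPKM.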

Additional observations from a re-analysis of the deposited data

How the results depend on the processing

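The differences of BBX14 to BBX17 kept their direction under every alternative run. Leaving out each library gave 1.04 to 1.26 for BBX14, -0.23 to -0.10 for BBX15, -0.40 to -0.21 for BBX16 and 1.32 to 1.90 for BBX17. With a pseudocount of 0.1 the difference of BBX17 was 1.87. Counts of calls moved more. Over all genes, 846 higher and 767 lower became 526 and 351 with no filter, 469 and 287 with no variance trend, and 70 to 398 higher and 21 to 164 lower without 1 library, where 1 residual degree of freedom is left. With the replicate number as a block they were 534 and 328, and with scaling by median of ratios 960 and 607. Same-numbered libraries deviated from their genotype means with a correlation of -0.133 over genes, so the numbers are not taken as pairs, and the crossed pairing, added after seeing the data, gave 1158 and 1129. Of the other BBX genes, 3 higher and 10 lower became 2 and 7 with no filter or no variance trend. Under the replicate block they were 3 and 8. Without 1 library, fewer than 10 of these genes were called lower. The GLK and chlorophyll list had 1 call in place of 2 with no filter or no variance trend and 1 to 2 without 1 library. The light signalling list had 5 in place of 9 under the replicate block or with no variance trend, and 0 to 3 without 1 library. Of the 297 fits of single named genes that kept all libraries, 285 gave the reported outcome, called or not called. Another 12 lost a call and 0 reversed in direction. The 285 include genes that were not called and so had no call to lose, and AT5G49448 beside bZIP1. The 12 lost calls were those on BBX3, BBX4, BBX24, BBX25 and GLK1, with no filter, no variance trend or the replicate block. The cause of lost calls was not tested. The number of libraries, 2 a genotype, and the unknown depth limit the precision of every value.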
